A study of Homo sapiens with 6 samples.

Results

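MHC class I molecules display short peptides from the proteins made inside a cell on its surface, where cytotoxic T cells and natural killer cells read them. The 9 genes described here encode parts of that route. They were taken by symbol from the count table of T24 bladder cancer cells, as HLA-B, HLA-C, HLA-E, B2M, TAP1, TAP2, TAPBP, PSMB8 and PSMB9. They are 9 of the 63677 gene identifiers in the table, and each symbol matched 1 identifier. None of the 8 genes with counts passed the edgeR test between cells with and without siRNA against RBM3, and TAP2 was listed at 0 in every library. The same test passed 0 of all 15099 genes tested, so RBM3 itself did not pass either.

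T24 is an established line from a grade 3 carcinoma of the human bladder. Both groups of 3 libraries came from these cells after 4.5 h with 25 nM siRNA in a lipid transfection reagent, followed by recovery in fresh medium overnight. The control group received a non-targeting siRNA, and the siRBM3 group a pool of siRNAs to RBM3, which encodes an RNA-binding protein. All values come from 1 cell line, and no source used here says whether the replicates of a group were grown as separate cultures, so the p-values measure the spread between these libraries. Control replicates were numbered 1, 3 and 5, and siRBM3 replicates 3, 4 and 5. In bulk RNA, fewer cells that express a gene and less RNA per cell cannot be told apart.

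The libraries held 23603992 to 45098612 counts, with the highest total in siRBM3 replicate 3. RBM3 itself was at 225, 368 and 301 CPM, counts scaled to a common library size, in control replicates 1, 3 and 5. It was at 54.1, 90.1 and 58.4 CPM in siRBM3 replicates 3, 4 and 5, so the groups did not overlap. The log2 fold change of RBM3 was -2.14 (95% interval -2.70 to -1.58), with an edgeR adjusted p of 0.0822 and a DESeq2 adjusted p of 3.73e-14. That edgeR value was the smallest of all genes tested, but it was tied, and NADK for example had the same. Of the markers of epithelium, 7 of 10 passed the filter on low counts, with a summed level of 5077 to 5882 CPM in control and 4223 to 4321 CPM in siRBM3, most of it keratins. Among them, CDH1, UPK1B and UPK3A did not pass the filter. Of 5 leukocyte markers only CD14 passed the filter, and the sum was 2.56 to 3.37 CPM in control and 2.29 to 2.75 CPM in siRBM3. Of 3 endothelial markers, PECAM1 matched no identifier by symbol, and VWF and CDH5 both passed the filter. They summed to 27.9 to 33.7 CPM in control and 33.8 to 40.8 CPM in siRBM3, most of it CDH5. Of 4 fibroblast markers 3 passed, with a sum of 11.1 to 11.7 CPM in control and 11.8 to 14.2 CPM in siRBM3.

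In the class I route, proteasomes cut proteins into peptides. PSMB8 and PSMB9 encode the catalytic subunits of the immunoproteasome, the form of this protease that interferon induces. TAP1 and TAP2 form the transporter that carries peptides into the endoplasmic reticulum, and TAPBP encodes tapasin, which joins the transporter to waiting class I molecules and edits their peptides. HLA-B, HLA-C and HLA-E encode heavy chains, the last a non-classical one that presents mainly leader peptides of other class I chains. B2M encodes beta-2-microglobulin, the light chain that all of these heavy chains need to reach the cell surface. Interferons raise the transcription of most of these genes through factors of the IRF and STAT families, and tumour cells are known to lower or lose them.

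Of the 9 genes, 8 lie on chromosome 6 in the MHC region. In GRCh37 coordinates, the minus-strand genes of the region are HLA-C at chr6:31236526-31239907, HLA-B at chr6:31321649-31334844, TAP2 at chr6:32789610-32806516, PSMB8 at chr6:32808494-32812456, TAP1 at chr6:32812986-32821593 and TAPBP at chr6:33267471-33282061. HLA-E at chr6:30457286-30461971 and PSMB9 at chr6:32811913-32827628 are on the plus strand, and the PSMB9 gene as annotated overlaps the whole of TAP1. B2M is the exception, on the plus strand at chr15:45003556-45011049.

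The promoter sequences are shown for the 6 members whose first windows held 1 of 2 motifs of the interferon response. The windows are the 250 bases before the RefSeq transcription start in GRCh38.p14, a build whose coordinates differ from those above. Capitals mark the matches to GAAANNGAA, the repeated core that IRF factors bind, or to TGAAACT, an end of the interferon-stimulated response element, on either strand. Where 2 matches overlap, the run of capitals covers both. Sequences are written 5′ to 3′ on the strand of the gene.

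HLA-B (chr6:31357180-31357429, minus strand): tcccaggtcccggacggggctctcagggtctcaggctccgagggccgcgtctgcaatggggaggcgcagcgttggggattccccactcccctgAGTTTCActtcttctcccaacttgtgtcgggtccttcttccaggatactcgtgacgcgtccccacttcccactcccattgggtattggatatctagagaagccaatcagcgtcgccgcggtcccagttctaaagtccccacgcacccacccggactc

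HLA-C (chr6:31272093-31272342, minus strand): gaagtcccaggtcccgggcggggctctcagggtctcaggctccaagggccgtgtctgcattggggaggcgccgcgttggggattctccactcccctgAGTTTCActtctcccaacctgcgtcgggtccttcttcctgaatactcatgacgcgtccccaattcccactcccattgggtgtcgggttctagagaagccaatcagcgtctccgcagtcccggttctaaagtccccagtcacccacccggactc

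B2M (chr15:44711267-44711516, plus strand): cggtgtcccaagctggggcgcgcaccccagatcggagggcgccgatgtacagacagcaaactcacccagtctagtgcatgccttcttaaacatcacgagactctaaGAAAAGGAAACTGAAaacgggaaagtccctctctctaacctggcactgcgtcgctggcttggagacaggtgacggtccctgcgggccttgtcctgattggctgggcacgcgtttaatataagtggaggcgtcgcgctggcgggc

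TAP1 (chr6:32853705-32853954, minus strand): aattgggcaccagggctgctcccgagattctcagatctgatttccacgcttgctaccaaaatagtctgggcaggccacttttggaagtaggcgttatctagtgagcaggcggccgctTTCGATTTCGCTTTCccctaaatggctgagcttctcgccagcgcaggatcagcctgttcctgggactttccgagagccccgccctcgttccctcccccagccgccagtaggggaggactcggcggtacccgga

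TAP2 (chr6:32838740-32838989, minus strand): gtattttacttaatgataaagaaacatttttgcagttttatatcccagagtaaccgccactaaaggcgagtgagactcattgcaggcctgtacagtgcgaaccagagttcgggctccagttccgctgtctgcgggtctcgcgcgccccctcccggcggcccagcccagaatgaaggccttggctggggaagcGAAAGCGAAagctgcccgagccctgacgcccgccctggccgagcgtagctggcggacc

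TAPBP (chr6:33314079-33314328, minus strand): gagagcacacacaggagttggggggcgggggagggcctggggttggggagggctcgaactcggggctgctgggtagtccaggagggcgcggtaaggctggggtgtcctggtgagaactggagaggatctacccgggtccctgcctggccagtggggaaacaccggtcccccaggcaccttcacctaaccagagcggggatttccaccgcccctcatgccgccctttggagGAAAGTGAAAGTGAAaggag

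In HLA-B and HLA-C, the TGAAACT match was on the opposite strand and began 157 and 153 bases before the start. The sequences of the 2 windows are alike around it. B2M held 2 overlapping GAAANNGAA matches from 144 bases before the start, TAP1 2 on the opposite strand from 133 bases before it, and TAPBP 2 from 20 bases before it. TAP2 held 1 such match, 58 bases before its start. No match was found in the first windows of PSMB8 and PSMB9, and HLA-E had no window. The TAP1 and PSMB9 windows overlap at their far ends, so the TAP1 matches lie between the starts of the 2 genes. Either motif was in 6 of the 8 members that had a window in the RefSeq table, against 9.53% of the 35116 windows of all genes. TTCNNNGAA, the site that STAT factors bind, was searched as well and was in 0 of the 8 first windows, against 6.57% of all windows. PSMB8 and TAP1 each had a second window, and each of these held 1 TTCNNNGAA match and 0 matches to GAAANNGAA or TGAAACT. GAAANNGAA alone was in 6.88% and TGAAACT in 3.12% of all windows. The GAAANNGAA motif was chosen after the sequences had been read, so the counts are a description, and a match is not a shown binding site. CCAAT, the box that NF-Y binds, was searched on both strands too, and was in the first windows of HLA-B, HLA-C, B2M, TAP1 and PSMB9 and in 32.0% of all windows.

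Among the heavy chains, HLA-B was at 198, 263 and 419 CPM in control replicates 1, 3 and 5. It was at 229, 241 and 239 CPM in siRBM3 replicates 3, 4 and 5. All siRBM3 libraries thus lay between the lowest and the highest control, and close to each other. The group means were 293 ± 114 and 236 ± 6.46 CPM (SD, n = 3 in each). HLA-B had a log2 fold change of -0.31 (95% interval -0.87 to 0.24), with an edgeR adjusted p of 0.631. Of its exon bases, 30.7% lie on exons of the pseudogene DHFRP2 on the same strand, which had 0 counts in all libraries, and 14.5% on those of a gene on the opposite strand, which had 13 to 27 counts per library.

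HLA-C was at 245, 296 and 429 CPM in the controls and at 289, 297 and 301 CPM in siRBM3, in the same order of replicates. The siRBM3 values again fell inside the control range. The means were 323 ± 95.2 and 296 ± 6.26 CPM (SD, n = 3), with a log2 fold change of -0.13 (95% interval -0.56 to 0.30) and an edgeR adjusted p of 0.818. HLA-E was at 398, 440 and 573 CPM in the controls and at 431, 472 and 473 CPM in siRBM3. Its means, 470 ± 90.9 and 459 ± 23.9 CPM (SD, n = 3), were the closest to each other among the heavy chains. The log2 fold change of HLA-E was -0.04 (95% interval -0.35 to 0.28, edgeR adjusted p 0.936). Class I heavy chain genes are near-identical in parts and vary between people, so reads could be split between them or be lost against the reference alleles, and the levels of single HLA genes are uncertain to that extent.

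B2M had another order of libraries than the heavy chains. It was at 699, 1759 and 1553 CPM in control replicates 1, 3 and 5 and at 2853, 2303 and 855 CPM in siRBM3 replicates 3, 4 and 5. The 2 highest libraries were siRBM3, but the third, siRBM3 replicate 5, was below 2 of the 3 controls. The highest library was 4.08 times the lowest. The means were 1337 ± 562 and 2004 ± 1032 CPM (SD, n = 3), and the fold change was 1.499 with a 95% interval of 0.69 to 3.23 (log2 0.58, edgeR adjusted p 0.653). Without siRBM3 replicate 5 the log2 fold change was 0.95, the groups no longer overlapped, and the unadjusted p was 0.0259 with an edgeR adjusted p of 0.414. Without control replicate 1 it was 0.27 (edgeR adjusted p 0.845).

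The transporter gene TAP1 was at 56.9, 59.5 and 89.4 CPM in control replicates 1, 3 and 5 and at 45.8, 55.8 and 59.0 CPM in siRBM3 replicates 3, 4 and 5. Here 2 of the siRBM3 libraries were below every control, and the third lay between control replicates 1 and 3. The means were 68.6 ± 18.0 and 53.5 ± 6.88 CPM (SD, n = 3), with a log2 fold change of -0.36 (95% interval -0.79 to 0.07), the lowest of the members. Its unadjusted p was 0.0898 and its edgeR adjusted p 0.464.

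TAP2, the other subunit of the transporter, was listed at 0 counts in all 6 libraries. A count of 0 allows up to 3 counts per library, or 0.0730 to 0.121 CPM, for counting error only. Of the 2058 coding bases of TAP2, 93.9% lie on exons of another annotated gene of the same strand, which held 11 to 36 counts per library. The part of this overlap in the zeros was not tested, and whether the TAP2 transcript was present cannot be read from them.

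For tapasin, the group means were close. TAPBP was at 341, 321 and 402 CPM in the controls and at 336, 403 and 371 CPM in siRBM3, with means of 355 ± 42.4 and 370 ± 33.8 CPM (SD, n = 3). The groups overlapped through most of their range. Its log2 fold change was 0.06 (95% interval -0.21 to 0.33, edgeR adjusted p 0.864), and this is the narrowest interval among the members.

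Of the immunoproteasome subunits, PSMB8 was at 69.5, 91.5 and 113 CPM in control replicates 1, 3 and 5 and at 65.5, 78.3 and 73.1 CPM in siRBM3 replicates 3, 4 and 5. The siRBM3 values lay around that of control replicate 1 and below the other controls. The means were 91.5 ± 22.0 and 72.3 ± 6.44 CPM (SD, n = 3). PSMB8 had a log2 fold change of -0.34 (95% interval -0.73 to 0.05), an unadjusted p of 0.0822 and an edgeR adjusted p of 0.452. PSMB9 was at 48.5, 65.4 and 83.4 CPM in the controls and at 57.4, 67.4 and 56.1 CPM in siRBM3, all inside the control range. Its means were 65.8 ± 17.5 and 60.3 ± 6.20 CPM (SD, n = 3), with a log2 fold change of -0.12 (95% interval -0.55 to 0.31, edgeR adjusted p 0.827).

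**Figure D1:**
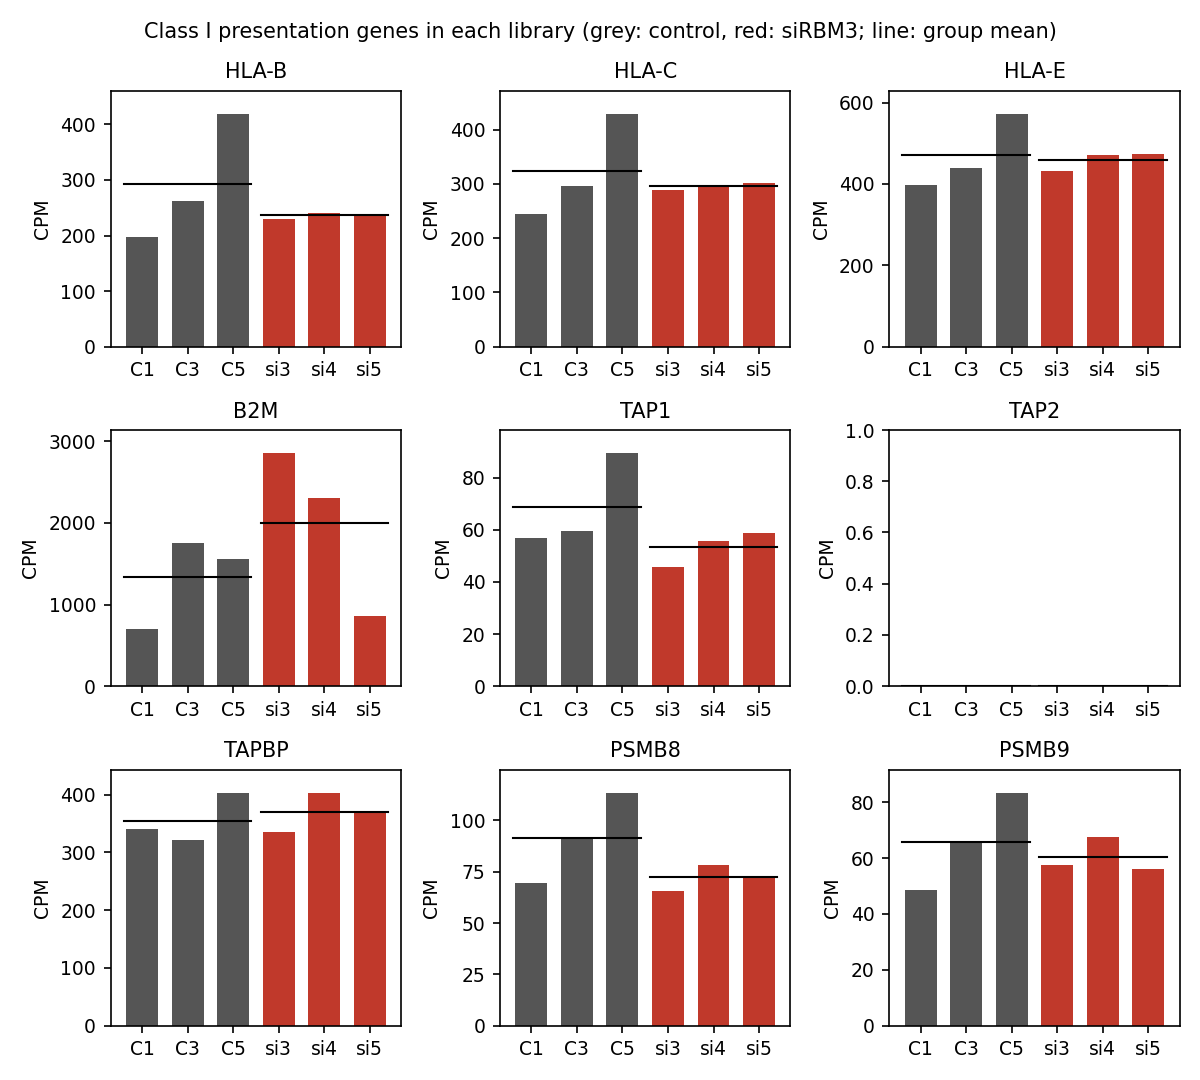
CPM of the 9 genes in each library, with control replicates (C1, C3, C5) in grey, siRBM3 replicates (si3, si4, si5) in red, and the mean of each group as a line. Control replicate 5 is the highest bar for 6 genes, TAP2 has no counts, and B2M ranges from 699 to 2853 CPM.

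Calls required a change of 1.5-fold or more with an adjusted p under 0.01. By edgeR, 0 of the 8 tested members were called, against 0% of all 15099 genes tested. DESeq2 called 0 of 8, against 1.27% of 12589 genes, and limma-voom called 0 of 8 and 0 of all genes. At an unadjusted p under 0.05, 0 of 8 members passed in each of the 3 tools. By edgeR, 6.56% of all genes passed at that level as higher in siRBM3 and 6.58% as lower. The groups overlapped for all 8 members, whereas every siRBM3 library was above every control for 9.98% of all genes and below for 9.93%. The median log2 fold change of the members was -0.13, and 6 of 8 were below 0, beside a median of -0.01 over all genes. The 95% intervals of 7 of the members hold changes of at most 0.87 on the log2 scale in either direction, and that of B2M reaches 1.69.

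**Figure D2:**
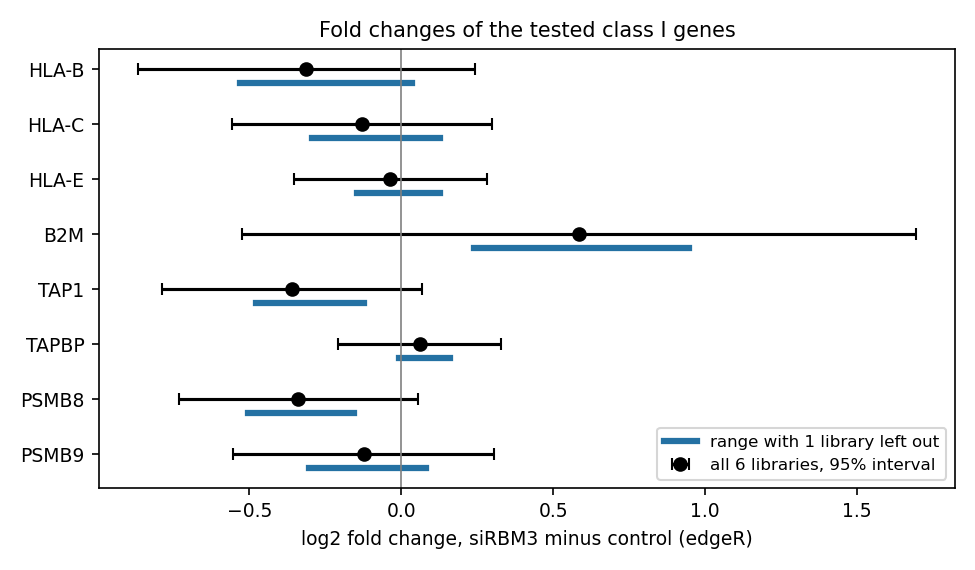
Log2 fold changes of the 8 tested genes (siRBM3 minus control, edgeR), with black points and 95% intervals for all 6 libraries and blue bars for the range when 1 library is left out. All black intervals cross 0, and the widest is that of B2M, from -0.53 to 1.69.

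The signs of 5 members depended on single libraries. Control replicate 5 was the highest of the 6 libraries for 6 of the 8 members, against 15.9% of all genes. The exceptions were B2M, highest in siRBM3 replicate 3, and TAPBP, highest in siRBM3 replicate 4. Control replicate 1 was the lowest library for 5 members, which were HLA-B, HLA-C, HLA-E, B2M and PSMB9. The share of all genes that were lowest there was not computed. Without control replicate 5, the median of the members was 0.11, and HLA-B, HLA-C, HLA-E and PSMB9 had log2 fold changes of 0.03, 0.13, 0.13 and 0.08. HLA-E was also at 0.0067 without siRBM3 replicate 3, and TAPBP was at -0.0070 without control replicate 3 and at -0.0054 without siRBM3 replicate 4. Without control replicate 1, the median was -0.30, and 3 members were apart between the groups and at an unadjusted p under 0.05. Those were HLA-B at -0.53 (unadjusted p 0.0187), TAP1 at -0.48 (0.0340) and PSMB8 at -0.50 (0.00433), with edgeR adjusted p-values of 0.209, 0.263 and 0.125. In that setting, 8.64% of 15341 genes were lower and 7.44% higher at the same level, and the groups were apart for 18.4% with siRBM3 below and for 16.8% with siRBM3 above. Without control replicate 5, TAP1 was at -0.12 (edgeR adjusted p 0.837) and PSMB8 at -0.16 (edgeR adjusted p 0.804).

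The spread within groups was unequal. Between the control libraries, the coefficient of variation was 38.7% for HLA-B, 29.5% for HLA-C, 19.3% for HLA-E, 26.3% for TAP1, 24.0% for PSMB8 and 26.6% for PSMB9. Between the siRBM3 libraries, the same genes had 2.74%, 2.12%, 5.20%, 12.8%, 8.90% and 10.3%. For 7 of 8 members the siRBM3 libraries were closer to each other than the controls were, and B2M was the exception at 42.0% and 51.5%. Over all genes tested, 59.9% were closer to each other in siRBM3. The pooled within-group SD of HLA-B, 0.39 on the log2 scale, was above that of 92.8% of the genes of similar level, and that of B2M, 0.83, was above 97.8%. TAPBP, at 0.15, was above 60.9%.

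Control replicate 5 was also the library in which interferon-stimulated genes were highest. The list holds 27 genes, such as IFIT1, MX1 and OAS2, whose products act against viruses, and 26 of them were tested. Of the 26, 25 were highest in control replicate 5. Their mean log2 deviation from the average of all libraries was 0.99 in control replicate 5 and 0.34 in control replicate 3. It was -0.41 in control replicate 1 and -0.35, -0.39 and -0.19 in siRBM3 replicates 3, 4 and 5. The mean deviation of the 7 members other than B2M was 0.45 in control replicate 5, 0.00 in control replicate 3 and -0.23 in control replicate 1. In siRBM3 replicates 3, 4 and 5 it was -0.18, 0.01 and -0.05. Both sets were thus highest in the same library and lowest in control replicate 1, with a smaller amplitude in the members. Of the 26 genes, 14 were lower in siRBM3 at an unadjusted p under 0.05 and 0 higher, with a median log2 fold change of -0.74. Without control replicate 5, 6 were lower and 1 higher, with a median of -0.41, and without control replicate 1, 25 were lower. The number lower was 6 without control replicate 3, 7 without siRBM3 replicate 3, 5 without siRBM3 replicate 4 and 12 without siRBM3 replicate 5. Over all genes, 6.58% were lower at that level with all libraries and 4.51% to 8.64% with 1 library left out. By edgeR 0 of them were called and by DESeq2 1. The part of this difference between libraries in the values of the members was not tested.

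**Figure D3:**
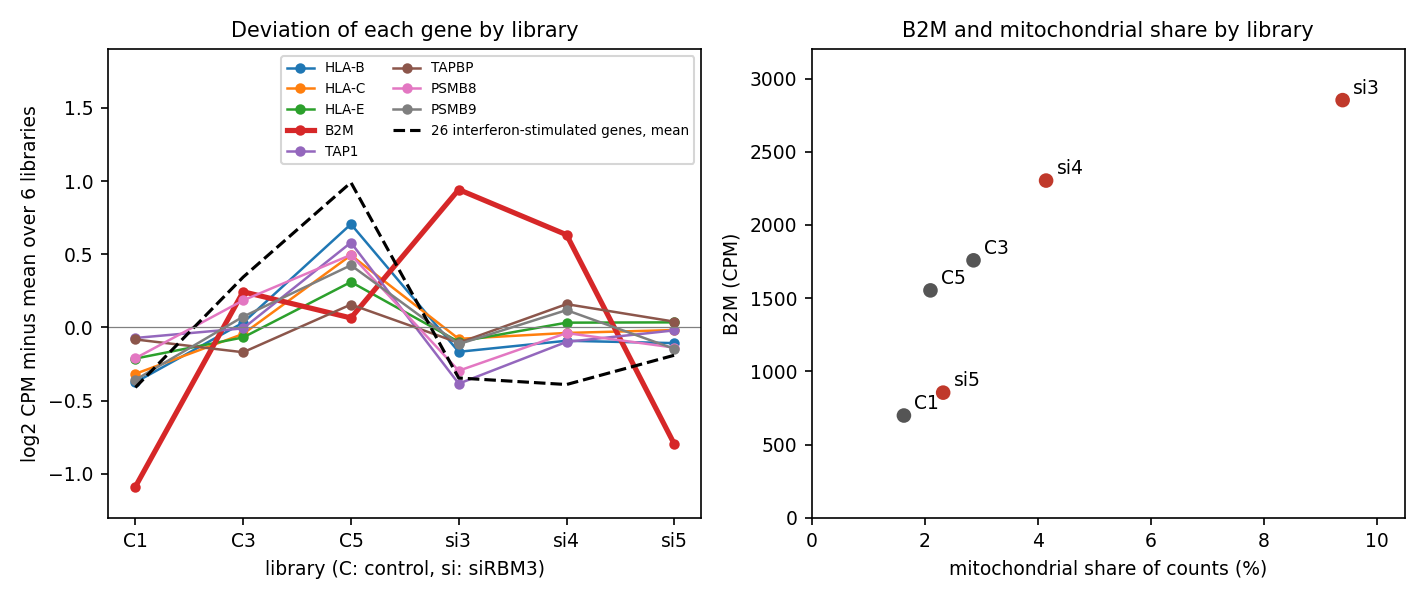
Left, log2 CPM of each of the 8 tested genes minus its mean over all libraries, with lines joining the points of a gene and the mean of 26 interferon-stimulated genes as a dashed line, and right, B2M (CPM) against the mitochondrial share of counts (%), with controls grey and siRBM3 red. Most genes peak in control replicate 5, where the dashed line reaches 0.99, while B2M peaks in siRBM3 replicate 3.

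The heavy chain and processing genes other than TAPBP followed each other across the libraries. Pearson's r of log2 CPM was 0.98 between HLA-B and HLA-C, 0.97 between HLA-C and HLA-E, 0.88 between PSMB8 and PSMB9 and 0.91 between TAP1 and PSMB8, over 6 libraries that differ in depth and in mitochondrial share. Leaving out TAPBP and B2M, the lowest r between members was 0.72, for TAP1 and PSMB9. TAPBP followed the others less closely, with r from 0.40 with PSMB8 to 0.76 with HLA-E. For B2M, r with the other members lay between -0.23 and 0.48. By the correlation with the mean standardized level of the members, the genes outside all lists that were most like them were MMP14 (r = 0.999), CFAP20DC, TMEM140, OPTN and CACNA2D3 (r = 0.989 to 0.987). MMP14, which encodes a membrane-bound matrix metalloproteinase, was at 245, 275 and 338 CPM in control replicates 1, 3 and 5 and at 261, 285 and 271 CPM in siRBM3 replicates 3, 4 and 5. These correlations are a description over 6 points, chosen as the highest of all genes.

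Measures of the whole library are given here beside B2M. The mitochondrial share of counts was 1.63%, 2.86% and 2.10% in control replicates 1, 3 and 5 and 9.40%, 4.15% and 2.32% in siRBM3 replicates 3, 4 and 5. The libraries with the highest and the lowest B2M were also those with the highest and the lowest mitochondrial share. Transcripts under 1000 bases took 7.27%, 8.11% and 8.38% of the nuclear counts in the controls and 9.002%, 8.82% and 6.96% in siRBM3, in the same order. The genes most like B2M, a choice made after the values were seen, were COX5B and UQCRB of the mitochondrial respiratory chain, DYNLL1, ZNF226 and ARPC5, with r from 0.999 to 0.994 over 6 libraries. B2M took 0.0738% to 0.260% of all counts. Spread over its 3121 annotated exon bases, that is 6.495 to 37.5 counts per base. Reads of 1 strand have only 1 start per base, so reads with a shared start position were counted. The part of depth, mitochondrial share, transcript length and duplicate reads in the B2M values was not tested.

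Levels between genes were compared per kilobase of the canonical transcript, in control means of CPM per kilobase. B2M was at 1418 ± 596, HLA-C at 210 ± 61.8, HLA-B at 191 ± 73.9, HLA-E at 185 ± 35.7, TAPBP at 103 ± 12.3, PSMB8 at 81.4 ± 19.6, PSMB9 at 64.7 ± 17.2 and TAP1 at 25.5 ± 6.72 CPM per kilobase (SD, n = 3). The light chain was above every heavy chain, with no overlap between libraries. The ranges of the 3 heavy chains overlapped each other, as did those of TAPBP with PSMB8 and of PSMB8 with PSMB9. TAP1 lay below all others, from 21.2 to 33.3 CPM per kilobase. In siRBM3 the means were 2125 for B2M, 192 for HLA-C, 180 for HLA-E, 154 for HLA-B, 107 for TAPBP, 64.4 for PSMB8, 59.3 for PSMB9 and 19.9 for TAP1 CPM per kilobase. There the 3 heavy chains did not overlap, with 187 to 195 for HLA-C, 169 to 186 for HLA-E and 149 to 157 for HLA-B. With the length of all annotated exons in place of the canonical transcript, HLA-E came before HLA-C and HLA-B in both groups, with control means of 161, 129 and 63.5 CPM per kilobase, so the order of the heavy chains depends on the length used.

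Ratios within a library remove the scaling of that library. The immunoproteasome subunits were set against the subunits that they replace, PSMB8 against PSMB5, PSMB9 against PSMB6 and PSMB10 against PSMB7. PSMB8 per kilobase was 0.897, 1.23 and 1.35 times PSMB5 in control replicates 1, 3 and 5 and 1.16, 1.21 and 1.16 times in siRBM3 replicates 3, 4 and 5. PSMB9 was 0.376, 0.525 and 0.615 times PSMB6 in the controls and 0.491, 0.556 and 0.451 times in siRBM3. PSMB10 was 0.0763 to 0.112 times PSMB7 over all libraries. It shares 39.4% of its exon bases with another gene of the same strand, so its ratio is uncertain. The differences of the mean log2 ratios, siRBM3 minus control, were 0.04, 0.01 and -0.10, with exact two-sided permutation p-values of 1, 1 and 0.7 and adjusted values of 1 for all 3. PSMB5, the denominator of the first, had a log2 fold change of -0.35 itself, as given with the list of peptide supply.

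The heavy chains were set against their light chain. HLA-B was 0.174, 0.0918 and 0.166 times B2M per kilobase in control replicates 1, 3 and 5 and 0.0493, 0.0643 and 0.171 times in siRBM3 replicates 3, 4 and 5. HLA-C to B2M ran from 0.0619 to 0.215 and HLA-E to B2M from 0.0560 to 0.211. In each of the 3 ratios, siRBM3 replicates 3 and 4 were lowest and siRBM3 replicate 5 lay within or near the controls. The log2 differences were -0.76 for HLA-B, -0.61 for HLA-C and -0.54 for HLA-E, with exact permutation p-values of 0.3, 0.4 and 0.4 and an adjusted p of 0.8 for each over the 6 ratios. With 3 libraries against 3, the smallest two-sided p that can be reached is 0.1. Because all 3 share B2M, they are not independent.

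**Figure D4:**
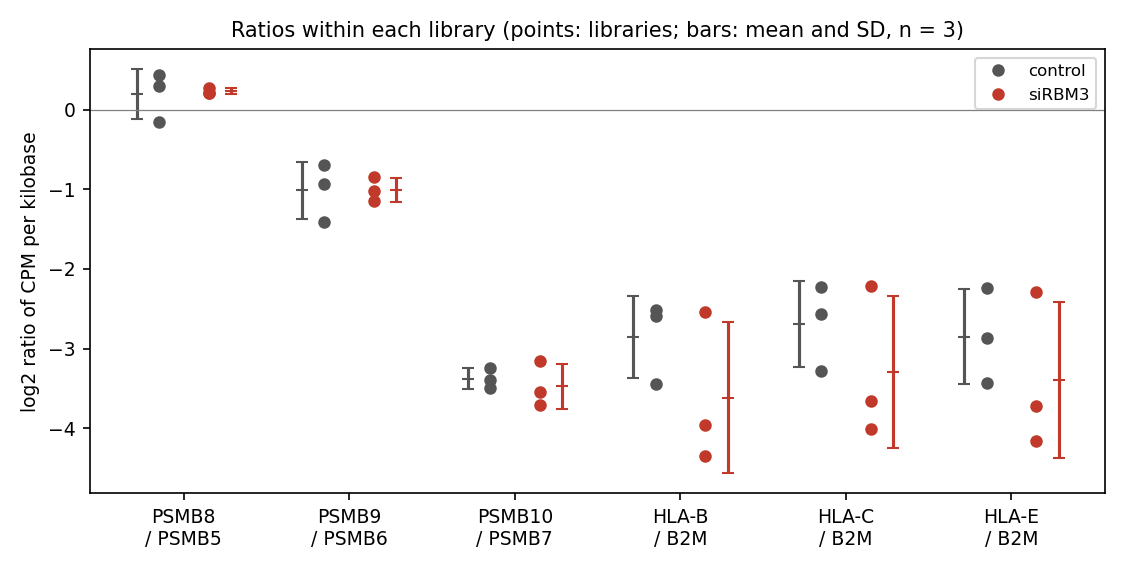
Log2 ratios of CPM per kilobase within each library, with a point per library, control in grey and siRBM3 in red, and the mean and SD (n = 3) beside the points. The points of both groups overlap in all 6 ratios, and the ratios to B2M have the widest spread.

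HLA-F and HLA-G, non-classical heavy chains, were at 31.2 ± 14.7 and 3.60 ± 1.15 CPM in control and at 22.2 ± 3.46 and 2.95 ± 0.63 CPM in siRBM3 (SD, n = 3). Both were highest in control replicate 5, and neither passed an unadjusted p under 0.05 (log2 fold change of HLA-F -0.49, unadjusted p 0.149).

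Peptide loading was covered by 8 chaperones and trimming enzymes, among them CALR, CANX and PDIA3, all of which were tested. None passed the unadjusted level in either direction, and their median log2 fold change was 0.08. The smallest p was that of ERAP1, the aminopeptidase that trims peptides in the endoplasmic reticulum. ERAP1 was at 92.8, 95.1 and 106 CPM in control and at 113, 114 and 109 CPM in siRBM3, so the groups did not overlap, with a log2 fold change of 0.20 (95% interval -0.01 to 0.40, unadjusted p 0.0621).

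Peptide supply was covered by 13 genes of proteasome subunits, proteasome activators and cytosolic peptidases, all tested. At an unadjusted p under 0.05, 1 was higher and 3 were lower, against 6.56% and 6.58% of all genes tested, with a median of -0.09. PSMB5, a catalytic subunit of the constitutive proteasome, was at 72.0, 69.0 and 77.8 CPM in control and at 52.7, 60.3 and 58.7 CPM in siRBM3. These groups did not overlap, and the log2 fold change was -0.35 (95% interval -0.58 to -0.12, unadjusted p 0.00765, edgeR adjusted p 0.214). The others were LAP3, an aminopeptidase, at -0.36, THOP1, an endopeptidase that degrades peptides, at -0.38 and NPEPPS, a puromycin-sensitive aminopeptidase, at 0.35. None of the 4 passed the adjusted threshold.

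Transcription of class I genes was covered by 20 factors, of which 17 were tested. Of these, 1 was higher at an unadjusted p under 0.05 and 0 were lower, against 6.56% and 6.58% of all genes tested. It was RFXAP, a subunit of the RFX complex that binds class I and class II promoters, with 7.34 ± 0.49 CPM in control and 9.49 ± 1.25 CPM in siRBM3 (SD, n = 3, log2 fold change 0.37). NLRC5, the transactivator of class I genes, was at 15.6, 17.3 and 16.9 CPM in control and at 14.0, 12.05 and 17.7 CPM in siRBM3, with overlapping groups. NLRC5 is named here beyond the genes chosen by p, after its values were seen. IRF9 was listed at 0 in every library. Of its exon bases, 23.9% lie on exons of another gene of the same strand. Whether the IRF9 transcript was present cannot be read from the zeros. The regulators CIITA, of class II genes, and SPI1 did not pass the filter.

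Interferon reception was covered by 10 receptor chains, kinases and inhibitors, all tested. At an unadjusted p under 0.05, 2 were lower and 0 were higher, against 6.58% and 6.56% of all genes tested. IFNGR2, a chain of the interferon gamma receptor, had a log2 fold change of -0.34, and TYK2, a kinase of the type I interferon receptor, of -0.30. Among 7 tested class I-like genes, 1 of 7 was higher at that level, against 6.56% of all genes tested. It was HFE, which regulates iron uptake, at 0.30. MICA was listed at 0 in every library, and the cause of these zeros was not tested. Of 9 class II genes, 4 were tested and 0 passed, 3 were at 0 in every library, and the whole list summed to 25.7 to 38.7 CPM. The smallest p among the class II genes was that of CD74, the invariant chain (log2 fold change -0.23, unadjusted p 0.179).

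**Figure D5:**
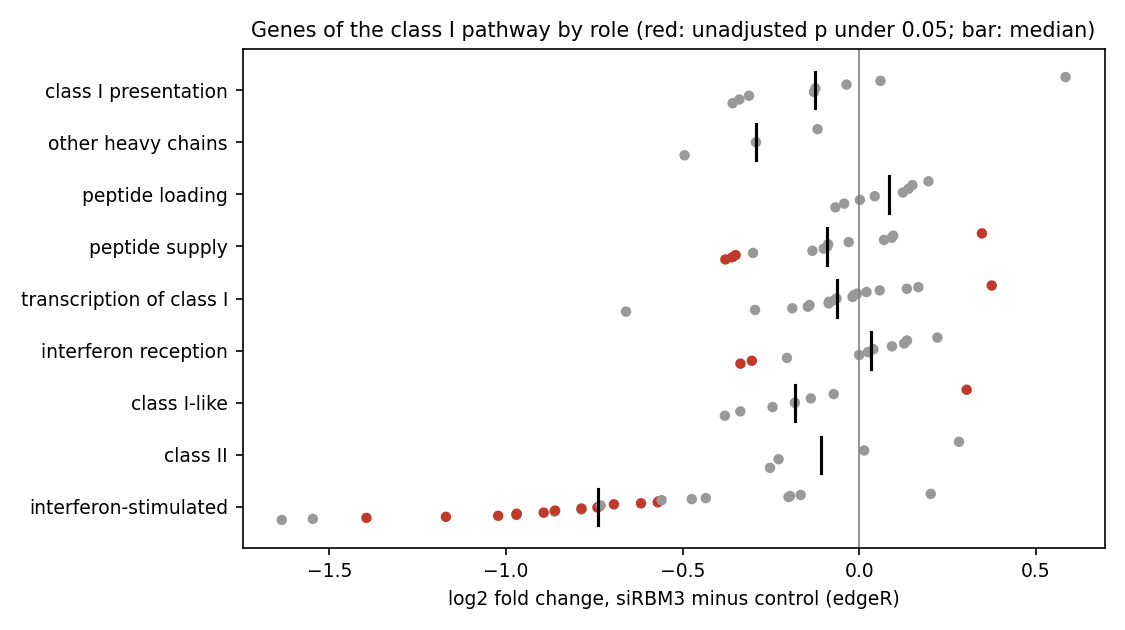
Log2 fold changes (siRBM3 minus control, edgeR) of the tested genes by role, with a point per gene, red at an unadjusted p under 0.05, and the median of each list as a bar. The class I presentation genes have a median of -0.13 and no red point, and the interferon-stimulated genes have 14 red points and a median of -0.74.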

How the data were processed

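The authors sequenced polyadenylated RNA of 3 control and 3 siRBM3 samples as stranded single-end reads of 75 bases on a NextSeq 500. Reads were trimmed with BBDuk, aligned to hg19/GRCh37 with STAR 2.5.2a and duplicate-marked with Picard. The deposited values are raw counts of reads per Ensembl gene, made by the authors with featureCounts and not normalized. The sources used here do not give the annotation release or the strand setting.

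The 9 members and all gene lists were chosen with earlier results of these data known. Genes were kept by filterByExpr of edgeR 4.0.16 (minimum count 10, minimum total 15), which left 15099. TMM scaling, the robust quasi-likelihood test and Benjamini-Hochberg adjustment were applied over all of them, with calls at a fold change of 1.5 and an adjusted p of 0.01. DESeq2 1.42.0 (the tool of the study's methods) and limma-voom (limma 3.58.1) in R 4.3.3 were alternatives. Genes named beyond the members were those at an unadjusted p under 0.05 in a list or, failing that, the one with the smallest p. CPM used TMM-scaled totals. Ratios were tested by exact two-sided permutation over libraries with scipy 1.17.1. Gene positions and lengths came from GENCODE on GRCh37, which gave symbols to 55665 of 63677 identifiers, and promoters from RefSeq on GRCh38.p14. Libraries within a group differed by more than sampling noise (chi-square per degree of freedom 27.7 to 141). Some genes of the lists are not reported here by name. Totals of 23603992 to 45098612 counts give members other than TAP2 at least 1391 counts per library, so the spread between libraries and not counting error limits the precision.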

Additional observations from a re-analysis of the deposited data

How the results depend on the processing

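Under DESeq2, limma-voom, RLE factors, library size only, no filter, a filter on a mean under 20 counts, leaving out each library and the replicate block, 0 of 104 alternative fold changes of the members passed both thresholds and 9 turned sign. With all libraries and no block, 0 of 8 members passed an FDR of 0.05 or 0.1 with no fold minimum. The number of members at an unadjusted p under 0.05 was 2 with no filter on low counts (TAP1 and PSMB8), and 0 to 3 with 1 library left out. With no filter, 4.73% of 30090 genes were lower and 4.7% higher at that level. With 1 library left out, 4.51% to 8.64% of all genes were lower and 4.35% to 7.44% higher. The number of members whose groups did not overlap was likewise 0 to 3 with 1 library left out. It was 3 without control replicate 1 and 2 without siRBM3 replicate 5 (B2M and TAP1), where 14.6% of all genes were apart above and 14.5% below. With 1 library left out, log2 fold changes ranged from -0.53 to 0.034 for HLA-B, from -0.30 to 0.13 for HLA-C, from -0.14 to 0.13 for HLA-E, from -0.30 to 0.082 for PSMB9, from -0.48 to -0.12 for TAP1, from -0.50 to -0.16 for PSMB8, from 0.24 to 0.95 for B2M and from -0.0070 to 0.16 for TAPBP. The log2 ratio differences ranged from -0.14 to 0.16 for PSMB8 to PSMB5, from -0.19 to 0.16 for PSMB9 to PSMB6 and from -0.25 to 0.024 for PSMB10 to PSMB7. The cause of these moves was not tested. Counts summed over all identifiers of a symbol gave no other value, since each member has 1.

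The groups share only the replicate numbers 3 and 5, whose deviations correlated at 0.53 and 0.09. Pairs of libraries with unlike numbers ran from -0.36 to 0.20. The value for number 3 was above that range and the value for number 5 inside it, so the numbers were not shown to pair the samples. With the replicate block, 4 members were at an unadjusted p under 0.05 (HLA-B, TAP1, PSMB8 and PSMB9) and 0 were called, with a median log2 fold change of -0.33. Control replicate 1 and siRBM3 replicate 4 had no partner in that fit, so it compared the groups through replicates 3 and 5 alone. That left few residual degrees of freedom, and the p-values of the blocked fit are uncertain to that extent. Over all genes, 13.5% were lower and 11.4% higher at that level in the blocked fit, and 2.23% were called. PSMB8, at a log2 fold change of -0.56, had an edgeR adjusted p of 0.00941 and missed the call by its fold, and TAP1, at -0.49, had an adjusted p of 0.0180. With no fold minimum, 2 members passed an FDR of 0.05 and 4 an FDR of 0.1, against 8.55% and 14.8% of all genes. In that blocked fit B2M was at -0.081, TAPBP at -0.026, the PSMB8 to PSMB5 difference at -0.16 and the PSMB9 to PSMB6 difference at -0.27.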
